A study of Arabidopsis thaliana with 4 samples.

Results

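SPL genes encode transcription factors of the SQUAMOSA promoter binding protein-like family, and the 10 described here all carry a site for the microRNA miR156. They were taken by locus identifier from the deposited table of 32678 loci: SPL2, SPL3, SPL4, SPL5, SPL6, SPL9, SPL10, SPL11, SPL13 (its copy SPL13A) and SPL15. All 10 identifiers were found in the table. SPL13B, the near-identical copy of SPL13A, carries the site too and is not among the 10. The RNA came from whole plants of Arabidopsis thaliana, in 2 genotypes. The first, 35S:TEM1, overexpresses TEM1 (TEMPRANILLO 1), a RAV-family transcription factor known as a repressor of flowering, from a constitutive promoter of cauliflower mosaic virus. The other was wild type (WT). There were 2 samples of each, every one a pool of 20 plants that were 10 days old, grown in LD at 22 °C and harvested at ZT18. Whether the overexpressor was 1 transgenic line is not given in the sources used here, and neither is the origin of the pools, so every p-value covers no more than the spread between pools, which may be technical.

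In young plants miR156 is abundant and holds SPL transcripts and their translation low. As a plant ages miR156 declines, SPL levels rise, and the plant passes from juvenile to adult leaves and becomes competent to flower, which is called vegetative phase change. SPL3, SPL4 and SPL5 are short proteins that act with the flowering signal at the shoot apex. SPL9 and SPL15, and with them SPL2, SPL10, SPL11 and SPL13, promote adult leaf traits and flowering. SPL9 also activates MIR172 genes and repressors of trichomes.

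The microRNA and its sites are shown because they define the set. Mature sequences are given with the seed, bases 2 to 8, in capitals. The first one is shared by the precursors MIR156A to MIR156F, and the last by MIR157A, MIR157B and MIR157C. All were read from TAIR10.1 with its RefSeq annotation.
miR156a-5p: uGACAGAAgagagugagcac
miR156h: uGACAGAAgaaagagagcac
miR157d: uGACAGAAgauagagagcac
miR157a-5p: uUGACAGAagauagagagcac
The first 3 share the seed GACAGAA. The miR157a-5p form has an extra base at its start, which shifts the seed by 1 position.

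For each member 1 best site of 20 bases for miR156a-5p was kept, and further sites were not counted. The sites below are from the sense strand of TAIR10.1, found by a match of the microRNA to the annotated transcripts, with capitals at bases that differ from its exact complement.
SPL9 site: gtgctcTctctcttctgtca
SPL3 site: TtgctTactctcttctgtca
SPL4 site: CtgctcTctctcttctgtca
SPL5 site: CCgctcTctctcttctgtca
The SPL9 site (chr2:17589066-17589085, plus strand) lies in the coding sequence. Its 20 bases were the same in SPL2, SPL6, SPL10, SPL11, SPL13A and SPL15, where they were also coding, with 1 mismatch, and in SPL13B outside the set. In SPL3 (chr2:14305878-14305897, plus strand) the site lies in the 3' UTR with 2 mismatches, of which 1 is a G:U pair. The sites of SPL4 (chr1:19807090-19807109, plus strand) and SPL5 (chr3:5140598-5140617, minus strand) are also in the 3' UTR, with 2 and 3 mismatches. Among 31460 genes with an annotated mRNA, 13 (0.0413%) held a site with at most 3 mismatches, and all 10 members were among them. Another 6 SPL genes outside the set, SPL1, SPL7, SPL8, SPL12, SPL14 and SPL16, had no match better than 6 to 8 mismatches. SPL9 and SPL11 hold the same 20 bases, and in the values given below SPL9 was lower and SPL11 higher in 35S:TEM1. Both calls were lost in some alternatives, and whether miR156 had a part in either change was not tested.

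The overexpression was checked first. TEM1 (AT1G25560) measured 784 and 827 RPKM in 35S:TEM1, against 16.3 and 30.3 RPKM in WT, where RPKM is a read count scaled by transcript length and library total. Reads of the transgene and the endogenous gene were not told apart. The deposited values were scaled to library totals of 20183817 and 27807143 reads in 35S:TEM1 and 30425737 and 24140725 reads in WT, found from the steps of the values. Across genes, which are not replicates, Pearson's r of log2 values was 0.991 between the 35S:TEM1 samples and 0.990 between the WT samples. The median log2 fold change of all tested genes was 0.12, and changes are to be read against that shift.

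Cell type lists were read beside the SPL genes. Green tissue markers (RBCS1A, LHCB1.1 and CA1) were abundant, with a summed RPKM of 23287 and 27366 in 35S:TEM1 and 29371 and 30685 in WT. Most of this sum was RBCS1A. RBCS1A (log2 fold change -0.28) and CA1 (-0.12) were lower in both 35S:TEM1 samples than in either WT sample, but did not pass. LHCB1.1, an antenna protein of photosystem II, measured 168 and 185 RPKM in 35S:TEM1, against 138 and 110 RPKM in WT, and rose (0.51 ± 0.12, adjusted p = 0.0286), a call lost with no limit on RPKM, with equal sample medians (0.36) and without either 35S:TEM1 sample. Root markers (PYK10, CASP1, SCR, PRP3 and NRT2.1) summed to 406 and 399 in 35S:TEM1 and 289 and 230 in WT. Of these 5 of 5 rose, where 18.3% of all tested genes did, but PRP3 (WT mean 0.84) entered the test only through its 35S:TEM1 values. PYK10, the larger part of this sum, lost its call with equal sample medians (0.46, adjusted p = 0.0523) and without either 35S:TEM1 sample (adjusted p = 0.093 and 0.072). Of 5 shoot meristem markers 3 could be tested. KNAT1, a homeobox gene of the shoot apex, measured 14.6 and 16.1 RPKM in 35S:TEM1, against 4.65 and 5.23 RPKM in WT. Its log2 fold change was 1.46 ± 0.11 SE (limma adjusted p = 0.000659). STM rose by 0.44 ± 0.12 (limma adjusted p = 0.047). That call was lost with no limit on RPKM (limma adjusted p = 0.0826). It was also lost with equal sample medians (0.29) and with any 1 sample left out (0.35 to 0.52). CLV1 did not pass, while WUS and CLV3, the defining genes of the stem cell niche, were at or under 0.11 in every sample. The meristem list summed to 36.8 and 38.2 in 35S:TEM1 and 24.4 and 24.7 in WT. The 7 floral markers summed to 21.8 and 19.0 in 35S:TEM1 and 2.65 and 3.15 in WT. SEP3 made up 19.7 and 17.3 of it in 35S:TEM1, against 0.86 and 1.47 in WT, and AP1, which marks floral meristems, was at 0 except for 0.029 in 35S:TEM1 replicate 2. In the fit with no limit on RPKM, which called 17.2% of 24315 loci, the petal and stamen genes PI and AP3 went opposite ways. PI measured 0 and 0.13 RPKM in 35S:TEM1, against 0.90 and 0.68 RPKM in WT (-0.75, limma adjusted p = 0.0136). These are 0 and 4 reads in 35S:TEM1 and 30 and 18 in WT. AP3 measured 0.43 and 0.42 RPKM in 35S:TEM1, against 0 and 0.080 RPKM in WT (0.45, limma adjusted p = 0.0159). It had 9 and 12 reads in 35S:TEM1 and 0 and 2 in WT. The limits of that fit are given with SPL5 below. The root markers, LHCB1.1, KNAT1, STM and SEP3 thus differed between the genotypes, as PI and AP3 did in the fit with no limit. The calls of PYK10, LHCB1.1 and STM were lost in the settings given above. CLV1 did not pass, nor did AG (0.12), SEP1 (0.28) and SEP2 (0.06) with no limit (limma adjusted p = 0.326, 0.247 and 0.583). RBCS1A and CA1 leaned the other way from LHCB1.1. The part of these markers in the SPL values was not tested. In RNA from whole plants, fewer cells of a type and less RNA per cell cannot be told apart.

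Of the 10 members 2 were listed at 0 in every sample, 1 lay under the limit of a mean RPKM of 1, and 7 were tested. SPL4 and SPL11 rose in 35S:TEM1, SPL9 fell, and SPL2, SPL6, SPL10 and SPL15 did not pass the test (limma on log2(RPKM + 1), adjusted p under 0.05 over 17746 genes). SPL5, below the limit, was lower in 35S:TEM1 by its values and passed in a fit without the limit. Among all tested genes 18.3% were called higher and 7.37% lower, 25.7% together, and the members' count of 3 of 7 was not tested against that background. The calls of all genes, 3255 higher and 1308 lower, became 1884 higher and 2388 lower with samples set to equal medians, and 2021 higher and 1862 lower with quantile normalization. The median log2 fold change of the 7 was 0.21, against 0.12 for all tested genes.

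**Figure D1:**
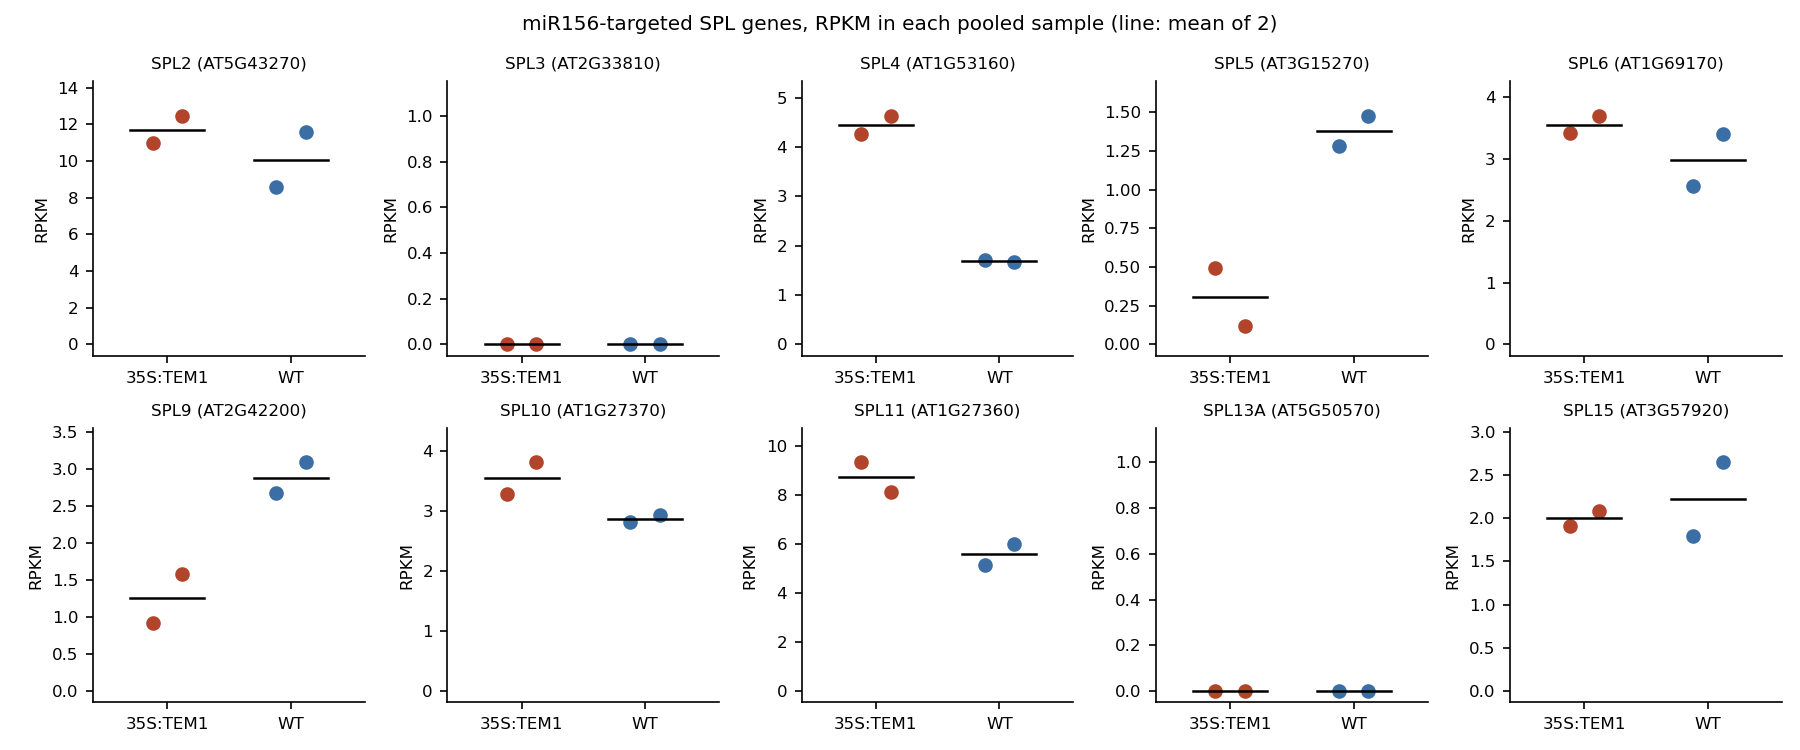
RPKM (vertical axis, linear, own scale in each panel) of the 10 miR156-targeted SPL genes in the 2 pooled samples of 35S:TEM1 (left, red) and of WT (right, blue), with the mean as a line. SPL4 and SPL11 are higher and SPL5 and SPL9 lower in both 35S:TEM1 samples, and SPL3 and SPL13A are at 0 in all 4.

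Of the short SPL proteins, which promote floral meristem identity, SPL4 was higher and SPL5 lower in 35S:TEM1. SPL4 (AT1G53160, chromosome 1) measured 4.26 and 4.63 RPKM in 35S:TEM1, against 1.72 and 1.66 RPKM in WT. Both 35S:TEM1 samples were above both WT samples, by far more than replicates differed. The means were 4.44 ± 0.27 in 35S:TEM1 and 1.69 ± 0.04 in WT (SD, n = 2 each), a 2.63-fold ratio, and on the log2(RPKM + 1) scale the change was 1.02 ± 0.12 (SE, limma adjusted p = 0.00283). These values stand for 92 and 138 reads in 35S:TEM1 and 56 and 43 in WT. In every alternative that tested it SPL4 stayed higher with an adjusted p under 0.05, with log2 fold changes from 0.84 to 1.39. It was the largest change among the tested members.

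SPL5 (AT3G15270, chromosome 3) went the other way at a level near the limit of detection. It measured 0.50 and 0.12 RPKM in 35S:TEM1, against 1.28 and 1.48 RPKM in WT. Both 35S:TEM1 samples were below both WT samples, although they also differed from each other. The means were 0.31 ± 0.27 in 35S:TEM1 and 1.38 ± 0.14 in WT (SD, n = 2 each), so WT was 4.47-fold higher. The smallest whole reads behind these values were 9 and 3 in 35S:TEM1 and 35 and 32 in WT, at a length of 897 bases. That length fits at most 2 times in the 1872 exon bases of the reference annotation. These reads and 2 times these reads cannot be told apart, and the gene models used are not given. In the fit with no limit on RPKM the log2 fold change was -0.88 ± 0.16 (limma adjusted p = 0.026), where 17.2% of 24315 loci were called, 4.70% as lower. Its direction was the same with each sample left out of that fit (-1.09 to -0.67), where no locus at all was called (adjusted p = 0.171 to 0.211 for SPL5, with 5151 to 6715 loci at an unadjusted p under 0.05). With voom on reads and no limit SPL5 had -2.44 (adjusted p = 0.013). In the reference annotation 25.5% of its exon bases lie under exons of AT3G15260 on the opposite strand, which measured 18.9 and 18.9 RPKM in 35S:TEM1, against 19.2 and 21.8 RPKM in WT.

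SPL3 (AT2G33810, chromosome 2), the third of the short SPL genes, was listed at 0 in all 4 samples. An antisense gene, AT2G33815, covers 97.3% of its exon bases in the reference annotation, and it was listed at 0 in all 4 samples too. Of protein-coding genes with at least 90% of their exon bases under another listed gene 82 of 323 (25.4%) were at 0 throughout, against 3337 of 20215 (16.5%) of those with no overlap. The share was 16.8% where 50% to 90% was overlapped and 3.83% where less than 50% was, so it did not rise steadily with overlap. How reads over both genes were counted is not given in the sources used here, so the zeros of SPL3 are no measure of its expression.

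SPL9 and SPL15 are close relatives that promote adult leaf form and flowering. SPL9 (AT2G42200, chromosome 2) measured 0.92 and 1.58 RPKM in 35S:TEM1, against 2.67 and 3.09 RPKM in WT. The groups did not overlap, and 35S:TEM1 replicate 1 was the lowest. The means were 1.25 ± 0.46 in 35S:TEM1 and 2.88 ± 0.30 in WT (SD, n = 2 each), with 28 and 66 reads in 35S:TEM1 and 122 and 112 in WT. SPL9 fell by 0.80 ± 0.18 on the log2(RPKM + 1) scale (limma adjusted p = 0.0234), and WT was 2.30-fold higher by the ratio of means. The call was lost without 35S:TEM1 replicate 1 (-0.59, adjusted p = 0.105), and likewise on leaving out WT replicate 2 (-0.72, adjusted p = 0.0672). It held in the other settings that tested SPL9, down to -1.18 with a pseudocount of 0.1 and with voom on reads.

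SPL15 (AT3G57920, chromosome 3) showed no such fall. It measured 1.91 and 2.09 RPKM in 35S:TEM1, against 1.79 and 2.65 RPKM in WT, so the 35S:TEM1 values lay between those of WT. The log2 fold change was -0.09 ± 0.17 (adjusted p = 0.717), with a 95% interval from -0.50 to 0.32. The sign turned to 0.10 without WT replicate 2. In the reference annotation all of its exon bases lie under exons of AT3G57910 on the opposite strand, which measured 5.61 and 4.17 RPKM in 35S:TEM1, against 3.44 and 3.88 RPKM in WT, so the level of SPL15 is uncertain. Whether SPL9 and SPL15 differ in response was not tested.

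SPL2, SPL10 and SPL11 form another related group, known for roles in leaf shape and in the shoot during flowering. SPL11 (AT1G27360, chromosome 1) measured 9.32 and 8.11 RPKM in 35S:TEM1, against 5.12 and 6.01 RPKM in WT. Both 35S:TEM1 samples were above both WT samples. The means were 8.72 ± 0.86 in 35S:TEM1 and 5.57 ± 0.63 in WT (SD, n = 2 each), a 1.57-fold ratio, with 332 and 398 reads in 35S:TEM1 and 275 and 256 in WT. The log2 fold change was 0.57 ± 0.12 (limma adjusted p = 0.0202). This call was lost with quantile normalization (0.40, adjusted p = 0.052) and when a sample was left out, be it 35S:TEM1 replicate 1 (0.48, adjusted p = 0.128), 35S:TEM1 replicate 2 (0.66, adjusted p = 0.0537) or WT replicate 1 (0.47, adjusted p = 0.0514).

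SPL10 (AT1G27370) is the neighbour of SPL11, with 1088 bases between the 2 genes, whose ends face each other. It measured 3.28 and 3.81 RPKM in 35S:TEM1, against 2.81 and 2.93 RPKM in WT. The groups did not overlap, but the change did not pass the test (0.23 ± 0.12, adjusted p = 0.21, 95% interval from -0.07 to 0.53). SPL2 (AT5G43270, chromosome 5) was the most abundant member per length, at 10.97 and 12.5 RPKM in 35S:TEM1, against 8.56 and 11.6 RPKM in WT. Its groups overlapped, and the log2 fold change was 0.21 ± 0.15 (adjusted p = 0.339, 95% interval from -0.16 to 0.58). Whether SPL10 and SPL11 differ in response was not tested. Together the 3 genes summed to an RPKM of 23.6 and 24.4 in 35S:TEM1 and 16.5 and 20.5 in WT, the larger part of the 34.6 and 36.5 in 35S:TEM1 and 26.5 and 32.8 in WT of all members.

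SPL6 and SPL13 complete the set. SPL6 (AT1G69170, chromosome 1), known for a role in immunity, measured 3.41 and 3.70 RPKM in 35S:TEM1, against 2.57 and 3.40 RPKM in WT. The groups came close without overlapping, and the change did not pass (0.20 ± 0.14, adjusted p = 0.335, 95% interval from -0.15 to 0.55). SPL13A (AT5G50570, chromosome 5) was listed at 0 in all 4 samples, and so was its copy SPL13B (AT5G50670), which lies 30843 bases away. Every 50-base stretch of SPL13A exons (2335 of 2335) was found at another place of the genome, against 0% for each of the other 9 members, so a read of that length cannot be placed in 1 copy. The zeros of SPL13A and SPL13B are no measure of their expression. Groups did not overlap in 5 of the 7 tested members, 4 higher and 1 lower, against 68.0% of all tested genes (47.4% higher and 20.7% lower).

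**Figure D2:**
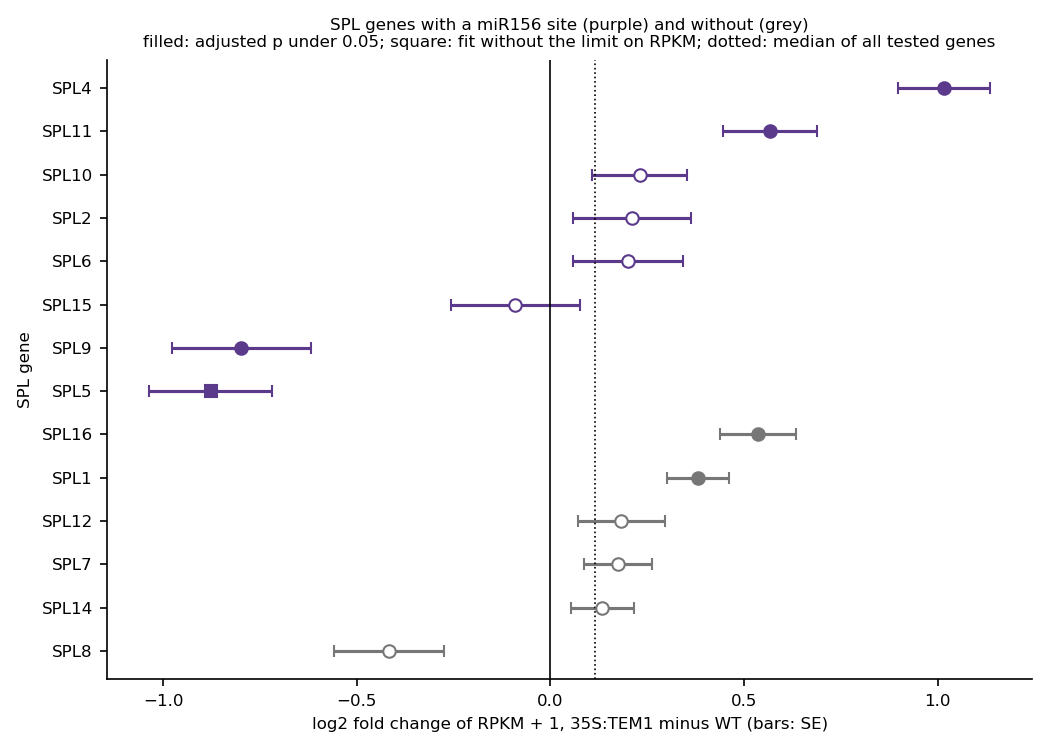
Log2 fold change of RPKM + 1, 35S:TEM1 minus WT, with its SE (horizontal axis), of SPL genes with a miR156 site (purple) and without (grey), filled where adjusted p was under 0.05. The square is SPL5, from the fit without a limit on RPKM, and the dotted line is the median of all tested genes at 0.12. SPL4 lies at 1.02 and SPL9 at -0.80, and SPL8 at -0.42 is open.

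SPL genes without a miR156 site were read in the same fit. Of these 6, all tested, 2 rose, 0 fell at an adjusted p under 0.05 and 4 did not pass, with a median of 0.18. Of all tested genes 18.3% rose and 7.37% fell, and 2 of 6 was not tested against these shares. SPL16, a large SPL protein, measured 8.58 and 8.22 RPKM in 35S:TEM1, against 5.64 and 5.33 RPKM in WT (0.54 ± 0.10, adjusted p = 0.0123). SPL1 had 46.0 and 43.4 in 35S:TEM1 and 34.5 and 33.6 in WT (0.38 ± 0.08, adjusted p = 0.0189). Both calls were lost without either 35S:TEM1 sample, and that of SPL1 with equal sample medians (0.23). SPL8, which acts in anther development, had 0.94 and 1.06 in 35S:TEM1 and 1.56 and 1.78 in WT (-0.42 ± 0.14, adjusted p = 0.0784). The 35S:TEM1 mean of SPL8 was 0.998 RPKM, so it entered the test only through its WT values. Its change passed under equal sample medians (-0.57), quantile normalization (-0.60), without the variance trend and with voom on reads (-0.71). Calls of a rise were thus made in SPL genes with and without the site, and the difference between the 2 kinds was not tested.

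Precursor loci of miR156 and its relative miR157 gave few reads, and MIR156A and MIR157A were called higher in 35S:TEM1. Both entered the test only through their 35S:TEM1 values, as their WT means were 0.20 and 0.23 RPKM. The limit on mean RPKM thus favoured a call of a rise. Reads at a precursor locus are no measure of the mature microRNA. MIR156A (AT2G25095) measured 3.02 and 2.63 RPKM in 35S:TEM1, against 0.40 and 0 RPKM in WT. These are 5 and 6 reads in 35S:TEM1 and 1 and 0 in WT, and the log2 fold change was 1.69 ± 0.20 (limma adjusted p = 0.00297). MIR157A (AT1G66783) had 1.63 and 1.98 in 35S:TEM1 and 0 and 0.46 in WT, or 3 and 5 reads in 35S:TEM1 and 0 and 1 in WT (1.21 ± 0.22, adjusted p = 0.0115, lost without 35S:TEM1 replicate 2). Counts this low carry large counting error, which the test on RPKM does not see. With voom on reads MIR156A had 2.97 (adjusted p = 0.0172) and MIR157A 2.54 (adjusted p = 0.0456). That fit used the same loci, let in by the same limit.

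MIR157C (AT3G18217) was the most abundant precursor, at 12.3 and 9.59 RPKM in 35S:TEM1, against 8.57 and 5.52 RPKM in WT, and did not pass (0.59 ± 0.20, adjusted p = 0.0818). It passed without WT replicate 1 (0.86, adjusted p = 0.0139) and with the replicate block (adjusted p = 0.00403). MIR156C had 1.27 and 1.85 in 35S:TEM1 and 1.34 and 1.02 in WT (adjusted p = 0.37), and MIR156D, under the limit, had 0.58 and 2.09 in 35S:TEM1 and was listed at 0 in both WT samples. Of the 17 precursor loci of miR156, miR157 and miR172, 6 were at 0 throughout and 4 were tested, of which 2 rose, where 18.3% of all tested genes did. The 2, MIR156A and MIR157A, entered the test only through their 35S:TEM1 values, so these shares cannot be compared. No MIR172 locus, whose microRNA acts after the SPL factors in phase change, held more than 1 read in any sample.

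Genes for proteins that make or carry microRNAs, or that regulate MIR156, were read against the 18.3% of all tested genes called higher and the 7.37% called lower. Of 7 genes of the microRNA machinery (DCL1, SE, HYL1, HEN1, HST, AGO1 and SQN) 1 rose, 0 fell and 6 did not pass, while 0 rose and 1 fell with equal sample medians or quantile normalization. AGO1, which carries miR156 to its targets, rose by 0.29 ± 0.08 (adjusted p = 0.0442), and the call was lost in 6 alternatives, among them equal sample medians (0.14). Of 9 regulators of MIR156 (AGL15, AGL18, VAL1, VAL2, CLF, SWN, PKL, BRM and HXK1) 1 rose and 8 did not pass. With the replicate block 4 rose, with voom on reads 4, and with robust variance 2. Under equal sample medians, quantile normalization, no limit on RPKM or no variance trend 0 rose. VAL2, a repressor of juvenile genes, rose by 0.32 ± 0.09 (adjusted p = 0.0491), which was lost in 8 alternatives. In 8 of the 9 both 35S:TEM1 samples were above both WT samples, against 47.4% of all tested genes, with a median of 0.29.

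**Figure D3:**
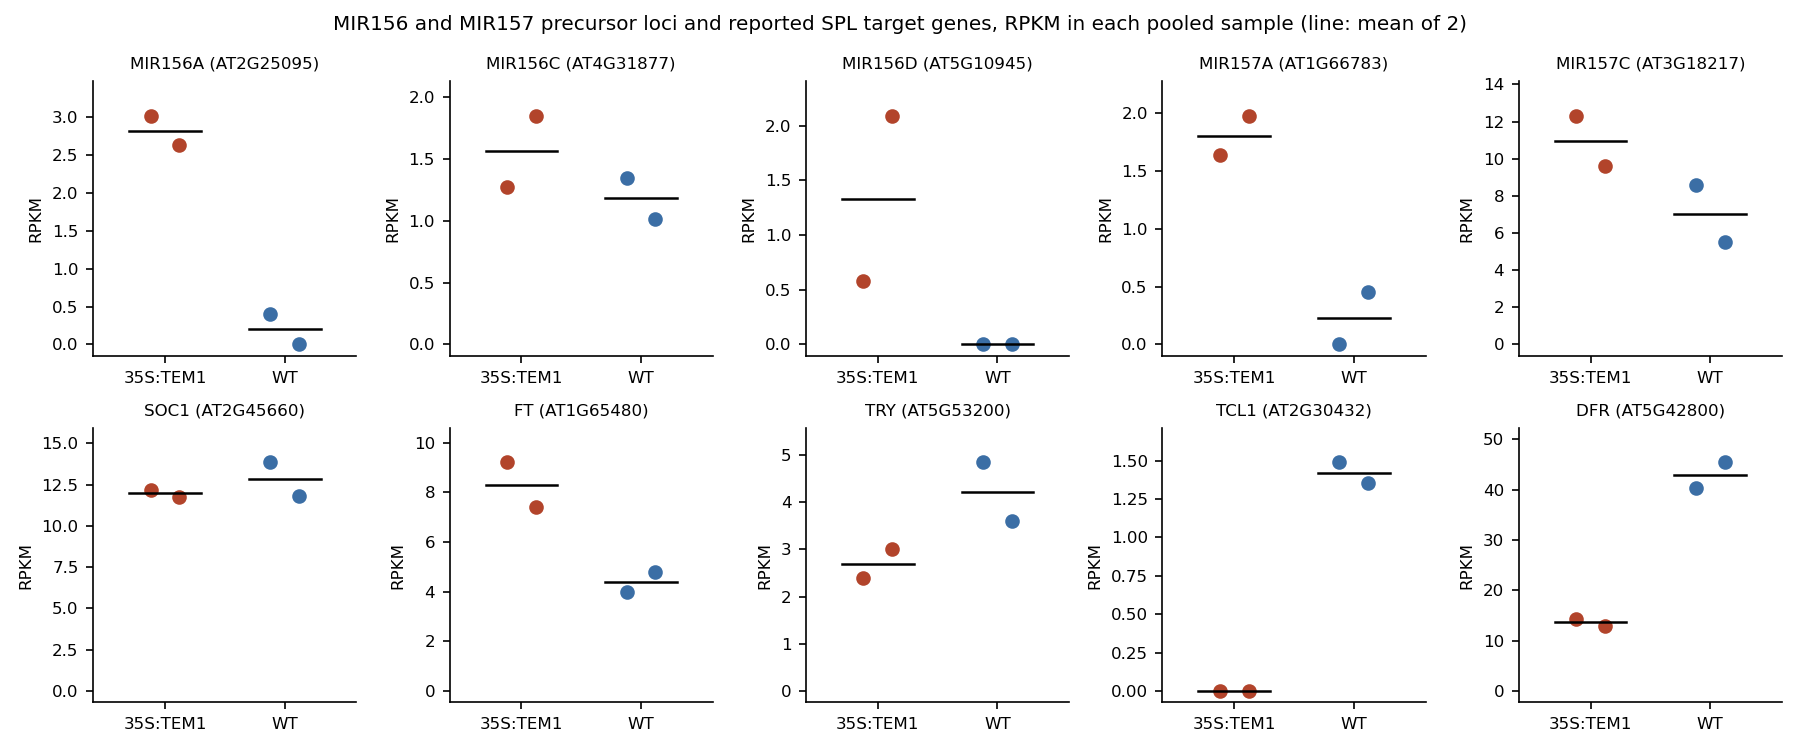
RPKM (vertical axis, linear, own scale in each panel) of precursor loci of miR156 and miR157 and of reported SPL target genes in the 2 samples of 35S:TEM1 (left, red) and of WT (right, blue), with the mean as a line. MIR156A and MIR157A are near 0 in WT, and TCL1 is at 0 in both 35S:TEM1 samples.

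Reported targets of SPL factors went in both directions. Of 11 genes 5 could be tested, of which 1 rose, 2 fell and 2 did not pass, with a median of -0.49, where 18.3% of all tested genes rose and 7.37% fell. The list mixes targets known to be activated and restrained, so these counts and the median are no measure of SPL activity. FT, the flowering signal, measured 9.21 and 7.40 RPKM in 35S:TEM1, against 4.00 and 4.80 RPKM in WT (0.78 ± 0.14, adjusted p = 0.0113, lost without 35S:TEM1 replicate 1). CER1, an enzyme of wax alkane synthesis that SPL9 is known to activate, had 3.19 and 3.05 in 35S:TEM1 and 50.2 and 44.1 in WT (-3.54 ± 0.10, adjusted p = 4.74e-05). DFR, an anthocyanin enzyme that SPL9 is known to restrain, had 14.3 and 12.98 in 35S:TEM1 and 40.3 and 45.4 in WT (-1.58 ± 0.10, adjusted p = 0.000406).

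The trichome repressors TCL1 and TRY, both known as direct SPL9 targets, were lower by their values. TCL1 (AT2G30432) was listed at 0 in both 35S:TEM1 samples and had 1.49 and 1.35 in WT, which is 25 and 18 reads. It lay under the limit. In the fit without a limit, where 17.2% of 24315 loci were called, 4.70% as lower, its adjusted p was 0.00277 (limma). The limits of that fit given with SPL5 apply to TCL1 too. TRY had 2.38 and 3.01 in 35S:TEM1 and 4.84 and 3.60 in WT (-0.49 ± 0.16, adjusted p = 0.0731). The change of TRY passed under equal sample medians (-0.64), quantile normalization (-0.67), the replicate block (adjusted p = 0.0475) and without WT replicate 2 (-0.67). SOC1, a MADS-box integrator of flowering, had 12.2 and 11.8 in 35S:TEM1 and 13.8 and 11.8 in WT (-0.09, adjusted p = 0.558). The floral genes FUL, LFY, AGL42 and AP1 were at most 1.06 in every sample, and TPS21 was listed at 0.

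Among all tested genes, the 3 whose pattern over the 4 samples was most like that of SPL4 were AT1G07750, AT3G53230 (AtCDC48B) and AT1G73325. Their centred log2 values lay at Euclidean distances of 0.030, 0.035 and 0.041 from those of SPL4, and 20 genes lay within 0.1. With 4 samples in 2 groups there is little room for patterns to differ.

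RAV proteins are known to bind the motifs CAACA and CACCTG. In the 1000 bases before the annotated start CAACA was present on either strand in 8 of 10 members (all but SPL2 and SPL9), against 93.7% of 27443 protein-coding genes. CACCTG was present in SPL6 alone, which also held CAACA, against 13.6% of those genes. A match is a description of the sequence only.

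**Figure D4:**
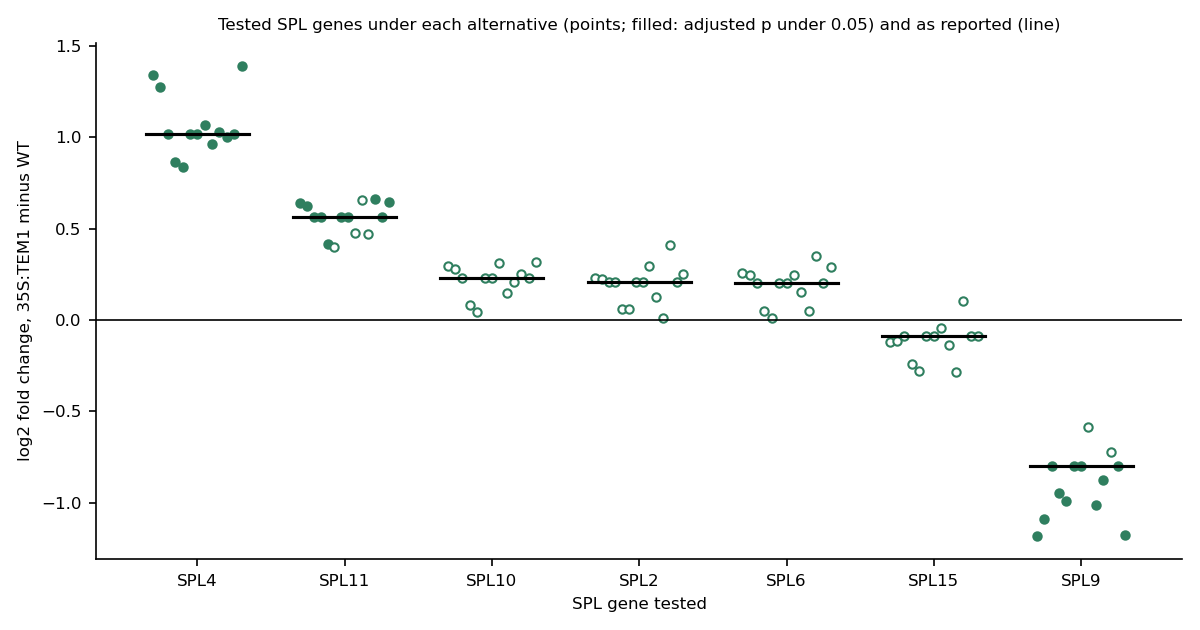
Log2 fold change, 35S:TEM1 minus WT, of the 7 tested SPL genes under each alternative setting (points, filled where adjusted p was under 0.05) and as reported (line). SPL4 is filled throughout, while SPL9 and SPL11 have open points and SPL15 crosses 0.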

How the data were processed

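RNA-seq of 2 pooled samples per genotype was deposited by the authors as 1 table of RPKM values for 32678 loci. Cuffdiff 2.2.1, STAR, FastQC, bcl2fastq 1.8.4 and the build TAIR10 are named, with no role, in the submitters' processing notes. For gene models and strand, the setting was not given in the sources used here. The steps between values showed the scaling totals, 20183817 to 30425737 reads, each supported by 351 to 446 loci. With these totals and a whole length in bases, all of 24315 loci above 0 gave whole reads in every sample within 1e-06 of a read. The smallest such reads are quoted, and they cover counting error only.

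Values were analysed as log2(RPKM + 1), which understates changes of low genes. Loci with a mean RPKM of at least 1 (17746) entered limma 3.58.1 (R 4.3.3) with a variance trend, 2-sided, with Benjamini-Hochberg adjustment over all of them and a threshold of 0.05. Checks on simulated data preceded this. Alternatives changed pseudocount, limit, scaling, variance model, samples or block, 14 in all, with voom on reads, and all alternatives to the SPL5 fit without a limit, chosen after seeing the data. Members and lists were chosen with earlier results of these data known. The named genes were all members, called genes of the lists with the uncalled ones needed to account for a list, TEM1, and the 3 genes nearest to the called member with the largest change. RefSeq (TAIR10.1) matched 31912 loci, and all 81 listed genes.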

Additional observations from a re-analysis of the deposited data

How the results depend on the processing

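Of all genes, 3255 were higher and 1308 lower. Equal sample medians gave 1884 and 2388 (44.1% of calls higher, against 71.3%), and moved the median of all genes from 0.12 to -0.03. Quantile normalization gave 2021 higher (52.0%). Leaving out 1 sample gave 1331 to 2955 higher and 545 to 1417 lower. Among SPL members 2 were higher and 1 lower. With a mean RPKM of at least 5 there were 1 and 0 (SPL4 and SPL9 were not tested), with quantile normalization 1 higher, and with no limit 2 lower, SPL5 being added. Without 1 sample 1 to 2 were higher and 0 to 1 lower. In the other SPL genes and pathway lists 7 were higher and 2 lower, with 4 and 5 at equal sample medians, 5 lower with quantile normalization, 11 higher with the replicate block, and 2 to 7 higher and 2 to 3 lower without 1 sample. Signs turned, in genes that had not passed, for SPL15 (-0.28 to 0.10 without 1 sample, positive without WT replicate 2), SPL14 (-0.016 with equal sample medians) and SOC1 (-0.20 to 0.015 without 1 sample, positive without WT replicate 1). The cause was not tested. Replicate numbers share no stated origin. Deviations of same-numbered samples correlated at 0.32 across genes. With the replicate block 4321 genes were higher and 1801 lower, and SPL4, SPL9 and SPL11 kept their calls and no member was added. Depth limits SPL5 and the precursors, which rest on few reads.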
